A study of Mus musculus with 12 samples.

Results

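Transcripts of the Rab GTPases were followed through 4 treatments of RAW 264.7 cells, a macrophage-like mouse line that grows without end in culture and stands in for primary macrophages only in part. All 56 genes whose annotated symbol is Rab followed by a number and at most a letter and a further digit were taken, of 19505 genes measured, whatever their values. Rab effectors and exchange factors were left out of the family and are described apart. RNA was read on 12 Affymetrix arrays in 4 groups of 3, and every group carried lipopolysaccharide (LPS), the outer membrane component of bacteria that macrophages sense through Toll-like receptor 4, at 500 ng/mL. The controls carried LPS alone. The second group carried LPS with a preparation that the labels call TsSP at 50 µg/mL, which they do not spell out and which the series' design text places among helminth products. The third carried LPS with inulin, a plant fructan taken as dietary fibre, at 500 µg/mL, and the fourth carried LPS with inulin and TsSP at these doses. All cells were incubated for 6 hours at 37°C in 5% CO2. No group lacked LPS, so each difference below is one among LPS-stimulated cells.

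Rab proteins are small GTPases that mark membranes. An exchange factor loads a Rab with GTP on the membrane it belongs to, the loaded Rab binds effectors that move, tether or fuse the vesicle, and a GTPase-activating protein ends the cycle by hydrolysis of the GTP. In macrophages they direct the uptake and ripening of phagosomes, the recycling of receptors, the delivery of Toll-like receptors and the secretion of cytokines.

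Array medians lay between 5.16 and 5.30 on the log2 scale, arrays of a group correlated across genes at r = 0.993 to 0.995, and no pair of arrays was identical. LPS replicate 1 had the lowest median. Exon control probe sets had medians of 11.22 to 11.36 on the 6 arrays with TsSP and 11.00 to 11.21 on the 6 without, and the splits into higher and lower genes are also given with arrays centred on these controls, an alternative chosen after seeing the data. All 8 macrophage markers measured, among them Adgre1, Csf1r and Spi1, were above background on all 12 arrays. Of 7 lymphocyte markers and 6 neutrophil and mast cell markers 0 were above background on any array, and of 7 fibroblast and epithelial markers 6 were above it on none. The labels leave it unsaid whether the arrays within a group stem from separate cultures. The p-values therefore cover the spread among these 12 samples and no more, and that spread may be technical. In RNA from whole cultures, fewer cells that express a gene and less RNA in each cell cannot be told apart.

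A group was taken to detect a gene, here called above background, if all 3 of its arrays read the gene above their own brightest background probe, of 23. By this measure 38 of the 56 Rab genes (67.9%) were above background in at least 1 group, against 46.3% of all genes, and 37 of them were above it on all 12 arrays. The exception was Rab4a, which missed it on LPS replicate 3. On no array were 15 Rab genes above background. They include Rab38, which serves melanosomes and other lysosome-related organelles, Rab27b, Rab3b, Rab3c, Rab25 and Rab17, most of which are known from neurons, secretory cells or epithelia. Rab39, Rab30 and Rab19 were above background on some arrays but on all arrays of no group. Each Rab gene had 1 probe set, and levels are compared here between groups, never between genes.

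The first comparison asked what TsSP did to the Rab transcripts during LPS stimulation. With TsSP, 15 of the 56 Rab genes differed from LPS alone at an adjusted p under 0.05 (limma across all genes, Benjamini-Hochberg), which is 26.8%, against 18.1% of all genes. Of these, 9 rose (16.1%, against 11% of all genes): Rab31, Rab4a, Rab27a, Rab7b, Rab43, Rab6a, Rab13, Rab11a and Rab40c. The other 6 fell (10.7%, against 7.08% of all genes): Rab20, Rab12, Rab9, Rab22a, Rab21 and Rab29. Among genes above background the share called was 39.5% for the Rab family and 34.9% for all genes, a share near the background. On 29 of the 56 genes (51.8%, against 32.7% of all genes) the 3 TsSP arrays lay entirely on one side of the 3 LPS arrays. Both of these shares include genes below background. The median log2 difference was 0.12 over the Rab genes, 0.02 over all genes and 0.11 over all genes above background. The split of 9 against 6 depends on the scaling: it was 6 against 7 after quantile normalization and 6 against 10 with arrays centred on the exon controls, which moved the median of all genes to -0.19. Over all genes 60.8% of calls were higher as deposited, 50.9% after quantile normalization and 31.8% with exon control centring. Below, the genes are taken in order of the compartment they serve. Each compartment holds few genes, and none was tested as a set. Their counts stand beside the shares of all genes, of which many are below background.

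**Figure D1:**
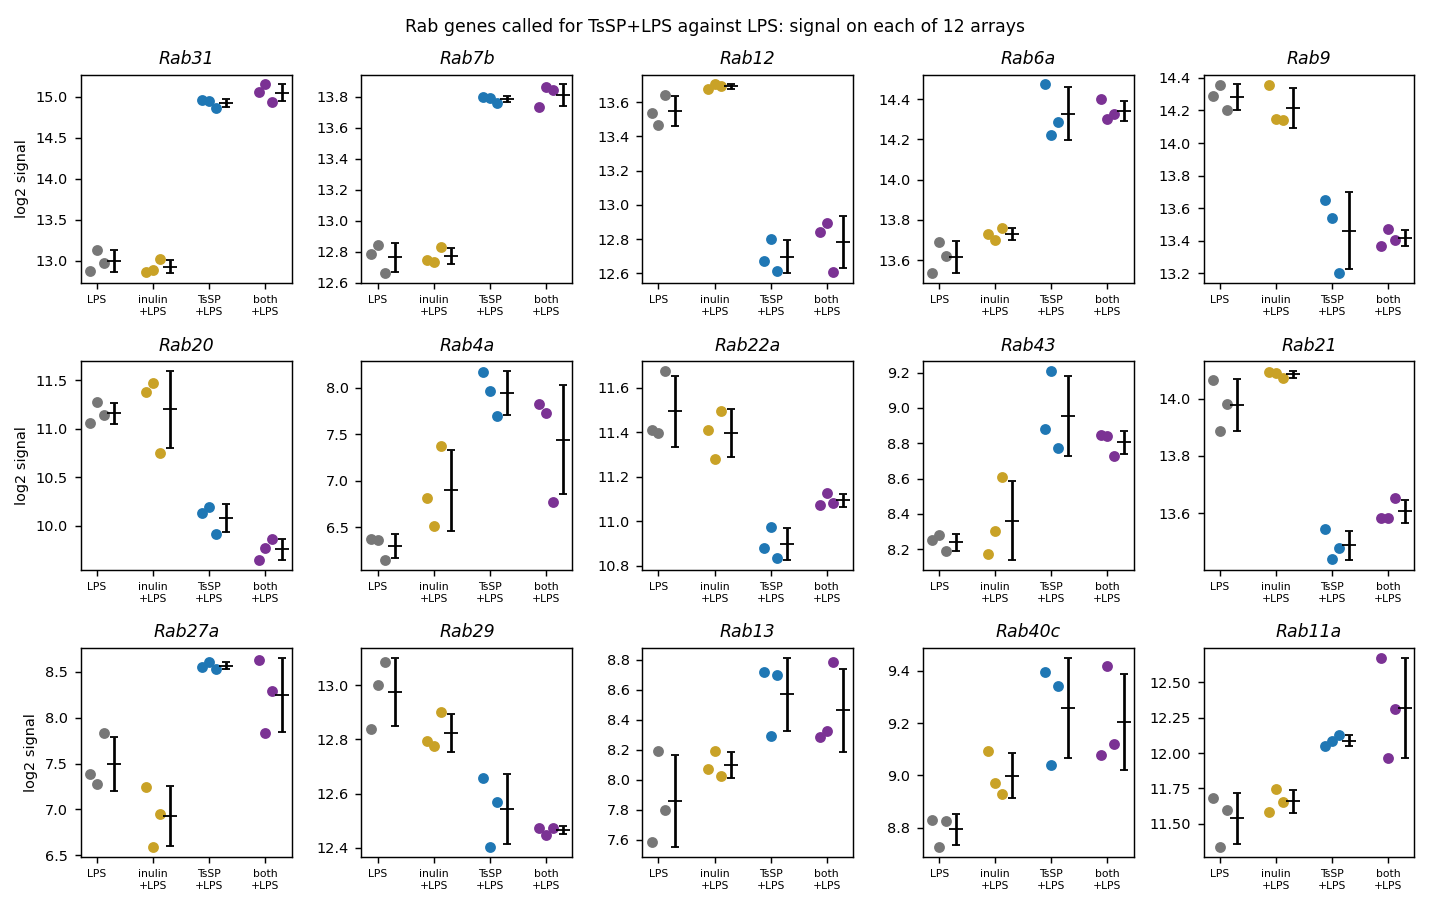
Log2 signal (vertical axis, its own range in each panel) of the 15 Rab genes called for TsSP against LPS alone, by treatment group (horizontal axis); points are single arrays, and the bar beside each group is the mean with its SD over 3 arrays. Rab31, Rab7b, Rab6a, Rab43, Rab13 and Rab11a are higher on all 6 arrays with TsSP than on all 6 without it, and Rab12, Rab9, Rab20, Rab22a, Rab21 and Rab29 are lower on all 6.

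Among the Rabs of the early endosome and uptake, 2 rose and 2 fell of 8 measured (25% each, against 11% and 7.08% of all genes). Rab31 (transcript cluster TC1700002414.mm.2), which carries cargo between the trans-Golgi network and endosomes, had the largest difference in the family. Its log2 signal was 12.88, 13.13 and 12.97 with LPS alone, 14.96, 14.95 and 14.86 with TsSP, 12.87, 12.89 and 13.02 with inulin and 15.06, 15.15 and 14.94 with both. All 6 arrays with TsSP were at least 14.86 and all 6 without it at most 13.13. Rab31 was 3.81-fold higher with TsSP than with LPS alone (log2 difference 1.93, SE 0.11, adjusted p = 7.03e-07, limma). Its closest relative in this set, Rab22a, which acts on early endosomes and in the return of receptors to the surface, went the other way. Rab22a measured 11.41, 11.40 and 11.68 with LPS alone, 10.88, 10.98 and 10.84 with TsSP, 11.41, 11.28 and 11.50 with inulin and 11.07, 11.13 and 11.08 with both. The 6 arrays with TsSP were all below the 6 without, and the difference from LPS alone was 1.51-fold lower (log2 difference -0.60, SE 0.12, adjusted p = 0.00387). The change of Rab31 with TsSP exceeded that of Rab22a by 2.48 on the log2 scale over the 12 arrays (exact permutation test of the TsSP labels within each inulin stratum, two-sided, p = 0.005, the smallest that 400 permutations allow, adjusted p = 0.015 over 9 pairs of related Rab genes). The pairs were chosen after the values had been seen. Both genes were already known to part all 6 arrays with TsSP from the 6 without, in opposite directions. The smallest p was thus fixed in advance, and it adds nothing to those values.

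Rab4a (TC0800001533.mm.2) drives the fast return of receptors from early endosomes to the surface. It gave 6.37, 6.37 and 6.15 with LPS alone, 8.17, 7.97 and 7.69 with TsSP, 6.81, 6.51 and 7.37 with inulin and 7.83, 7.73 and 6.77 with both. LPS replicate 3 was below background, so its rise is a lower bound, at least 3.04-fold (log2 difference 1.65, SE 0.28, adjusted p = 0.00160). All 3 TsSP arrays stood above all 3 LPS arrays, while the inulin arrays lay between and the arrays with both were spread over a whole log2 unit. Rab21, which follows integrins through early endosomes, gave 14.07, 13.89 and 13.98 with LPS alone, 13.54, 13.44 and 13.48 with TsSP, 14.09, 14.09 and 14.07 with inulin and 13.58, 13.58 and 13.65 with both. It fell 1.40-fold (log2 difference -0.49, SE 0.10, adjusted p = 0.00519), a small step but one that parted all 6 arrays with TsSP from all 6 without. The Rab5 genes, whose products fuse early endosomes, did not pass the test. Rab5a measured 14.31, 14.37 and 14.37 with LPS alone and 14.11, 14.09 and 14.09 with TsSP. Its groups did not overlap, with a log2 difference of -0.25 (95% interval -0.49 to -0.02, adjusted p = 0.145). It passed the test with a mean-variance trend (adjusted p = 0.0178), among genes above background alone (0.0327) and with exon control centring (0.0160). Rab5c differed by 0.25 (SE 0.11, adjusted p = 0.142) and Rab5b by 0.34 (SE 0.16, adjusted p = 0.175). Over all 12 arrays the change of Rab5a with TsSP lay 0.40 below that of Rab5c (exact permutation test as above, p = 0.005, adjusted p = 0.015). It lay 0.22 below that of Rab5b, which did not pass (exact permutation test, p = 0.295). These pairs too were chosen after the values had been seen, which the adjustment does not cover.

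The bases ahead of the start are shown for 4 genes. Rab31 had the largest rise, and Rab20 and Rab12 the 2 largest falls. Rab21, a smaller fall, was picked because its stretch holds the E-box letters given below. Rab31 and Rab12 lie on the same chromosome, their starts 746.9 kb apart with 8 protein-coding genes between them, and went opposite ways. Sequences are the 250 bases before the RefSeq start in build GRCm38.p6, on the gene's own strand, 5′ to 3′. They were searched on both strands for ACGTG and GCGTG, the core letters of the hypoxia response element, and for CACGTG, the E-box, which holds ACGTG. Matches are in capitals.
Rab31: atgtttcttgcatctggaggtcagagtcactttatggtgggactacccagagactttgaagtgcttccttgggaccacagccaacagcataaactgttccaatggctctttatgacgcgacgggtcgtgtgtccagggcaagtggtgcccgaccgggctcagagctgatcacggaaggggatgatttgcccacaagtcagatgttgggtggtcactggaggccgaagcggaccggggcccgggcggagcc
Rab12: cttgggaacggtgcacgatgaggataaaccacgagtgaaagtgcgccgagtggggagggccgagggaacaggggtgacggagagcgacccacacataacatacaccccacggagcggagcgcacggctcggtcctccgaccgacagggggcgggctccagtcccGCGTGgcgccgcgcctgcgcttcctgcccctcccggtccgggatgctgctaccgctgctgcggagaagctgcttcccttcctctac
Rab20: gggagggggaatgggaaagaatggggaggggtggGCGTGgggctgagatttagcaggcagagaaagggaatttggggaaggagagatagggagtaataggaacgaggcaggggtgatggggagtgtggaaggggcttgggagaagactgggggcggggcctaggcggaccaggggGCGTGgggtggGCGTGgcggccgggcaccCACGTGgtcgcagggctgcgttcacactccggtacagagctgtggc
Rab21: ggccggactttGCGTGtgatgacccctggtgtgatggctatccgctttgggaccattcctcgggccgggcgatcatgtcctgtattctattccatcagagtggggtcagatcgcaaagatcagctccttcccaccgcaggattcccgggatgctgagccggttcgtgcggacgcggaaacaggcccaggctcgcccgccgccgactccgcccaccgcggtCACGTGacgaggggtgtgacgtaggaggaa
The Rab31 stretch, chr17:65772753-65773002 on the minus strand, holds none of these letters in capitals. That of Rab12, chr17:66519671-66519920, also minus, has a single GCGTG 86 bases before the start. Rab20, at chr8:11478641-11478890 on the minus strand, has GCGTG 216, 75 and 64 bases ahead and a CACGTG 46 bases ahead. Rab21, at chr10:115315592-115315841 on the minus strand, has GCGTG 239 bases and CACGTG 30 bases ahead. Rab9 and Rab22a, which fell further than Rab21 but are not printed, each have 1 GCGTG and no CACGTG. RefSeq held promoter entries for 47 of the 56 Rab genes, 59 promoters in all, and for 13 of the 15 called. Any of the letters stood in 6 of 6 promoters of the Rab genes that fell, from 6 genes. They stood in 3 of 12 promoters of those that rose, from 7 genes, and in 17 of 41 of those not called, from 34 genes. Some genes, Rab27a and Rab43 among them, have several promoters, and each was counted, so these counts are not of independent genes. The share with any of the letters was 38.6% of all promoters and 56.9% of those of genes above background. CACGTG itself stood in 2 of 6 promoters of the Rab genes that fell. It stood in 1 of 12 of those that rose, a promoter of Rab27a, and in 2 of 41 of those not called, of Rab5a and Rab23. Among promoters of genes above background 8.67% held it. Median GC content of these windows was 64.2% for the genes that fell, 57.6% for those that rose and 59.6% for genes above background, and its part in the counts was not tested. A match is a run of letters and shows neither a bound site nor a cause.

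Among the 10 measured Rabs of recycling and delivery to the plasma membrane, 2 rose and 0 fell (20% and 0%, against 11% and 7.08% of all genes). Rab13, known for delivery of proteins to cell junctions and the leading edge, measured 7.59, 8.19 and 7.80 with LPS alone and 8.72, 8.29 and 8.70 with TsSP. That was 1.63-fold higher (log2 difference 0.71, SE 0.19, adjusted p = 0.0235). Rab11a, which runs the recycling endosome, gave 11.68, 11.34 and 11.60 with LPS alone and 12.05, 12.09 and 12.13 with TsSP, 1.46-fold higher (log2 difference 0.55, SE 0.17, adjusted p = 0.0419). In both genes the 3 TsSP arrays lay above the 3 LPS arrays. These calls were among the closest to the threshold. Rab13 lost its call without LPS replicate 1 (adjusted p = 0.0866), LPS replicate 3 (0.0690), TsSP replicate 1 (0.0851) or TsSP replicate 3 (0.0843), after quantile normalization (0.126) and with exon control centring (0.111). Rab11a lost it in 9 of 12 fits that left out an array, the adjusted p reaching 0.140 without LPS replicate 2; the calls that held were those without LPS replicate 1 or without replicate 1 or 2 of the group with both. Under the other scalings the adjusted p of Rab11a was 0.0663 with median centring, 0.0816 after quantile normalization and 0.210 with exon control centring. Rab11b differed by 0.31 (SE 0.13, adjusted p = 0.132), and the change of Rab11a exceeded it by 0.35 over 12 arrays, which did not pass (exact permutation test as above, p = 0.05, adjusted p = 0.113). Rab10, which brings Toll-like receptor 4 to the surface of macrophages, read 14.50, 14.46 and 14.73 with LPS alone and 14.54, 14.78 and 14.80 with TsSP. The groups overlapped, and the interval of the difference ran from -0.13 to 0.42 (log2 difference 0.14, adjusted p = 0.530). Rab14, found on phagosomes and endosomes, read 13.08, 13.03 and 13.40 with LPS alone and 13.41, 13.26 and 13.46 with TsSP, again overlapping (log2 difference 0.20, 95% interval -0.09 to 0.49, adjusted p = 0.370). Rab35, a recycling Rab, was with Rab3d the nearest gene above background that missed the threshold (log2 difference 0.29, SE 0.11, adjusted p = 0.0938). The exocytic pair Rab8a and Rab8b differed by 0.13 and 0.01 with SE of 0.10 each, far from the threshold.

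The late endosome, lysosome and phagosome group had 1 rise and 3 falls among 10 measured genes (10% and 30%, against 11% and 7.08% of all genes). Rab7b (TC0100001173.mm.2), which acts between late endosomes and the trans-Golgi network and is known to limit Toll-like receptor signalling in macrophages, rose 2.03-fold (log2 difference 1.02, SE 0.10, adjusted p = 3.62e-05). Its log2 signal was 12.78, 12.84 and 12.66 with LPS alone, 13.80, 13.79 and 13.76 with TsSP, 12.75, 12.74 and 12.83 with inulin and 13.73, 13.86 and 13.84 with both. With TsSP all 6 lay above the 6 without. Rab7, the general Rab of late endosomes and lysosome fusion, did not pass the test. It measured 17.27, 17.02 and 17.20 with LPS alone and 17.19, 17.29 and 17.17 with TsSP, with overlapping groups (log2 difference 0.05, 95% interval -0.20 to 0.31, adjusted p = 0.828). The change of Rab7b exceeded that of Rab7 by 0.94 over the 12 arrays (exact permutation test as above, p = 0.005, adjusted p = 0.015). This pair was likewise chosen with the values seen, Rab7b being already apart on all 6 arrays, so its p adds nothing to them. The other 5 of the 9 pairs, within the Rab5, Rab8, Rab1 and Rab2 genes, did not pass (exact permutation test, p from 0.1 to 0.895).

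Rab20 (TC0800001698.mm.2), a Rab of maturing phagosomes in macrophages, had the largest fall of the family. It gave 11.06, 11.27 and 11.14 with LPS alone, 10.13, 10.19 and 9.91 with TsSP, 11.38, 11.48 and 10.75 with inulin and 9.64, 9.77 and 9.86 with both. The highest array with TsSP, at 10.19, lay below the lowest without it, at 10.75. Against LPS alone it fell 2.11-fold (log2 difference -1.08, SE 0.18, adjusted p = 0.00131). Rab9, which returns mannose 6-phosphate receptors from late endosomes to the Golgi apparatus, gave 14.29, 14.36 and 14.20 with LPS alone, 13.65, 13.54 and 13.20 with TsSP, 14.36, 14.15 and 14.14 with inulin and 13.37, 13.47 and 13.40 with both. It fell 1.77-fold (log2 difference -0.82, SE 0.13, adjusted p = 0.00115), and its 6 arrays with TsSP were all below the 6 without. Rab29, a partner of the kinase LRRK2 at the Golgi apparatus and lysosomes, gave 12.84, 13.00 and 13.09 with LPS alone, 12.66, 12.40 and 12.57 with TsSP, 12.79, 12.78 and 12.90 with inulin and 12.47, 12.45 and 12.47 with both. It fell 1.35-fold (log2 difference -0.43, SE 0.11, adjusted p = 0.0215). The call was lost without LPS replicate 2 (adjusted p = 0.0598), LPS replicate 3 (0.0794), TsSP replicate 2 (0.0917) or TsSP replicate 3 (0.0543). Rab39, tied to phagosome acidification, exceeded background on 0 of 3 LPS arrays and 1 of 3 TsSP arrays and gets no fold (log2 difference 0.54, adjusted p = 0.209). Rab24 differed by 0.44 (SE 0.20, adjusted p = 0.173) and Rab34 by -0.27 (SE 0.33, adjusted p = 0.673), and neither passed. Of the pair that serves lysosome-related organelles, Rab32 read 11.51, 11.51 and 11.40 with LPS alone and 11.32, 11.33 and 11.05 with TsSP, apart but not called (log2 difference -0.24, SE 0.13, adjusted p = 0.253). Rab38 was below background on every array (log2 difference 0.34, adjusted p = 0.454).

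In the endoplasmic reticulum and Golgi group, 2 of 12 measured genes rose and 0 fell (16.7% and 0%, against 11% and 7.08% of all genes). Rab6a, which moves vesicles within and out of the Golgi apparatus, gave 13.54, 13.69 and 13.62 with LPS alone, 14.48, 14.22 and 14.29 with TsSP, 13.73, 13.70 and 13.76 with inulin and 14.40, 14.30 and 14.32 with both. All 6 arrays with TsSP, from 14.22 upward, were above the 6 without, and the rise over LPS alone was 1.64-fold (log2 difference 0.71, SE 0.11, adjusted p = 7.39e-04). Rab43, which acts at the Golgi apparatus, gave 8.25, 8.28 and 8.19 with LPS alone, 8.88, 9.21 and 8.77 with TsSP, 8.17, 8.30 and 8.61 with inulin and 8.84, 8.84 and 8.73 with both. It rose 1.64-fold (log2 difference 0.72, SE 0.15, adjusted p = 0.00501), and the lowest TsSP array, at 8.77, lay above the highest LPS array, at 8.28. The Rabs of the first step out of the endoplasmic reticulum did not pass: Rab1a differed by 0.15 (SE 0.10, adjusted p = 0.378) and Rab2a by 0.11 (SE 0.12, adjusted p = 0.618). Rab1b, Rab2b, Rab18 and Rab33b differed by 0.17, -0.09, -0.09 and -0.21, none past the threshold.

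Of 8 Rabs of regulated secretion, 3 were above background, and 1 of them rose (12.5% of the 8, against 11% of all genes). Rab27a, which docks secretory granules and exosome-bearing endosomes at the plasma membrane, gave 7.38, 7.28 and 7.83 with LPS alone, 8.56, 8.61 and 8.54 with TsSP, 7.25, 6.59 and 6.95 with inulin and 8.64, 7.83 and 8.29 with both. The TsSP arrays were close together and all above the LPS arrays, and the rise was 2.10-fold (log2 difference 1.07, SE 0.23, adjusted p = 0.00593). Rab3d, a granule Rab, differed by 0.48 (SE 0.18, adjusted p = 0.0938), just short of the threshold, and Rab3a by 0.64 (SE 0.26, adjusted p = 0.123). Rab3b came closer (adjusted p = 0.0529) but lay below background on every array.

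Among the remaining members, 1 rose and 1 fell of 6 measured (16.7% each, against 11% and 7.08% of all genes). Rab12 (TC1700002434.mm.2), which sends the transferrin receptor from recycling endosomes to lysosomes, gave 13.53, 13.47 and 13.64 with LPS alone, 12.67, 12.80 and 12.61 with TsSP, 13.68, 13.70 and 13.69 with inulin and 12.84, 12.89 and 12.61 with both. It fell 1.80-fold (log2 difference -0.85, SE 0.12, adjusted p = 3.32e-04), and its highest array with TsSP, at 12.89, was well under the lowest without, at 13.47. Rab40c, which carries a SOCS box and serves a ubiquitin ligase, gave 8.83, 8.73 and 8.83 with LPS alone and 9.40, 9.04 and 9.34 with TsSP. It was 1.38-fold higher (log2 difference 0.47, SE 0.14, adjusted p = 0.0334) and, with Rab11a, the nearest to the threshold of the genes that passed. Its call was lost without any one of the 3 LPS arrays (adjusted p = 0.0617, 0.0950 and 0.0675 for replicates 1, 2 and 3) and without TsSP replicate 1 (0.119) or 3 (0.109), and also with median centring (0.0693), quantile normalization (0.170) and exon control centring (0.257). Rab23 and Rab28, known from cilia, differed by 0.03 and 0.28 and were not called.

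**Figure D2:**
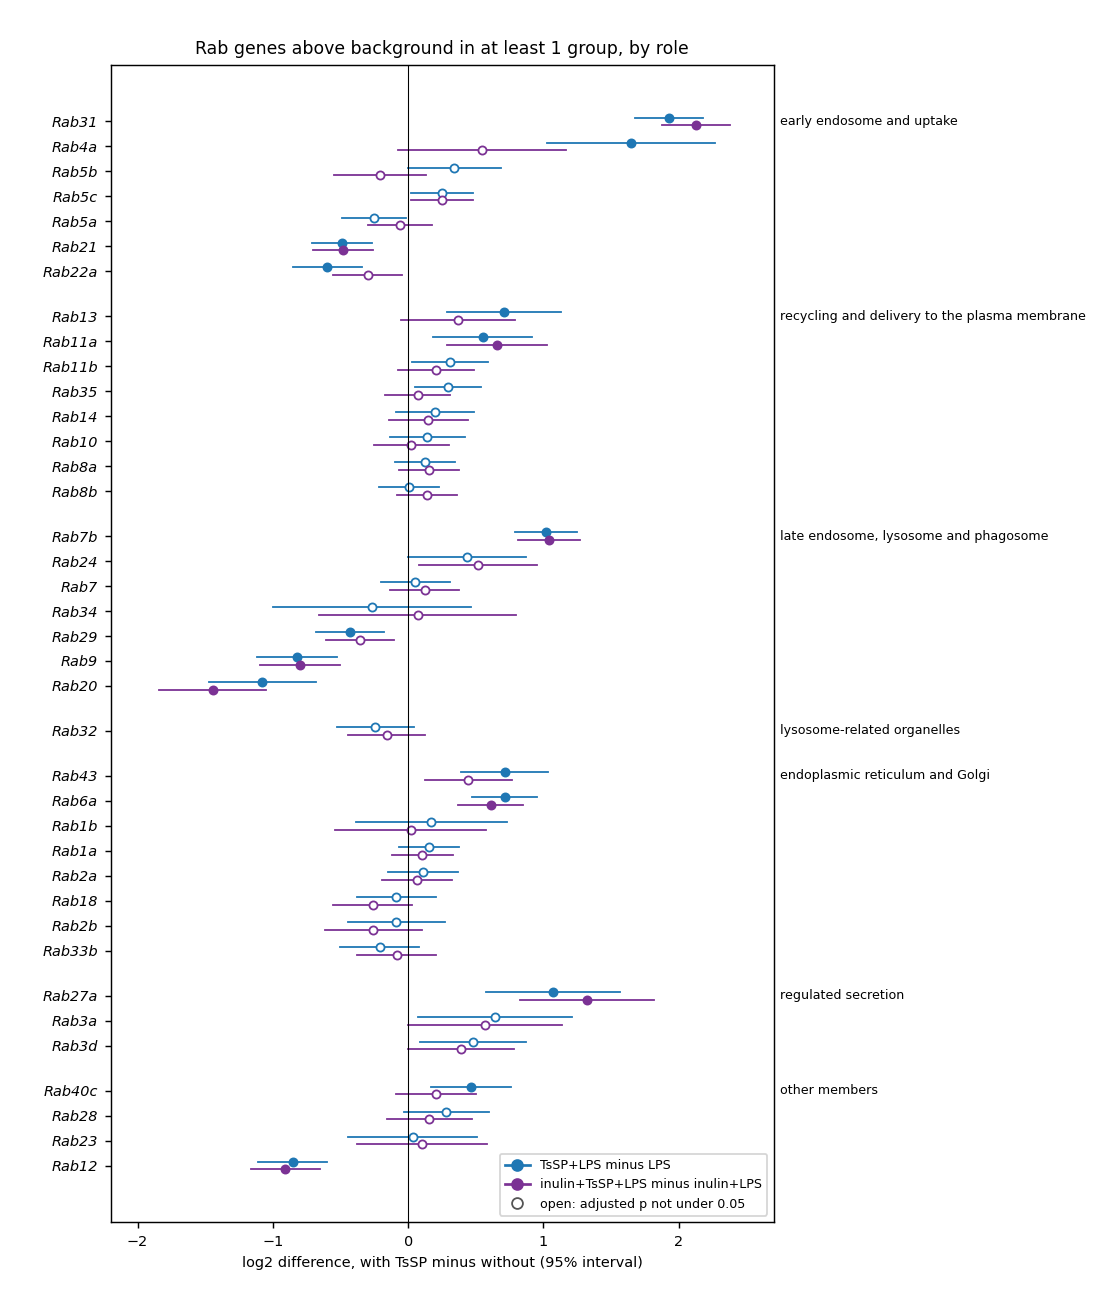
Log2 difference with its 95% interval (horizontal axis) of the 38 Rab genes above background in at least 1 group (vertical axis), ordered by role; blue is TsSP against LPS alone, purple is both against inulin, and open circles did not reach an adjusted p of 0.05. Rises and falls lie side by side in the early endosome group (Rab31 at 1.93, Rab22a at -0.60) and in the late endosome group (Rab7b at 1.02, Rab20 at -1.08).

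The design repeats the addition of TsSP on cells that also carried inulin, with arrays that the first comparison did not use, although both share the spread that limma pools. There, 9 of the 56 Rab genes differed (16.1%, against 16.7% of all genes), a share near the background. Rab31, Rab27a, Rab7b, Rab11a and Rab6a rose (5 genes, 8.93%, against 8.66% of all genes). Rab20, Rab12, Rab9 and Rab21 fell (4 genes, 7.14%, against 7.99% of all genes). With exon control centring the split was 4 higher and 6 lower. Rab31 was 4.36-fold higher (log2 difference 2.13, SE 0.11, adjusted p = 2.88e-07), and Rab27a 2.50-fold higher (log2 difference 1.32, SE 0.23, adjusted p = 0.00162). Rab7b rose 2.06-fold (log2 difference 1.04, SE 0.10, adjusted p = 3.17e-05), near its value without inulin. Rab11a, close to the threshold without inulin, rose 1.58-fold here (log2 difference 0.66, SE 0.17, adjusted p = 0.0185), and Rab6a 1.53-fold (log2 difference 0.61, SE 0.11, adjusted p = 0.00223). Among the falls, Rab20 was 2.72-fold lower (log2 difference -1.44, SE 0.18, adjusted p = 1.70e-04), Rab12 1.88-fold (log2 difference -0.91, SE 0.12, adjusted p = 2.03e-04), Rab9 1.74-fold (log2 difference -0.80, SE 0.13, adjusted p = 0.00142) and Rab21 1.39-fold (log2 difference -0.48, SE 0.10, adjusted p = 0.00629). All 9 were among the 15 called without inulin, in the same direction. That is 100% of the 9 and 60% of the 15, and over all genes called without inulin 71.5% were called the same way with it. All 15 kept their sign. Across the 38 genes above background the differences correlated at r = 0.914, and at 0.890 without Rab31, against 0.935 over the 9022 genes above background, which describes genes on the same 12 arrays and is no replicate test.

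The 6 Rab genes called without inulin but not with it were Rab4a, Rab22a, Rab43, Rab29, Rab13 and Rab40c. Rab29 (log2 difference -0.36, adjusted p = 0.0543) and Rab43 (0.44, adjusted p = 0.0627) came just short. Rab22a differed by -0.30 (adjusted p = 0.116), Rab13 by 0.37 (0.252) and Rab40c by 0.21 (0.379). Rab4a had the widest gap, from a log2 difference of 1.65 without inulin to 0.54 with it (adjusted p = 0.249). The difference between these differences was tested as the interaction of inulin and TsSP. It was called for 0 of 56 Rab genes and 0 of all genes (0%, limma), with 4 Rab genes (7.14%) and 1089 of all genes (5.58%) at an unadjusted p under 0.05. Among Rab genes above background the smallest p was that of Rab4a, 0.0182, for an interaction of -1.10 (SE 0.40, 95% interval -1.98 to -0.23, adjusted p = 0.841). A different response to TsSP with inulin present was therefore not shown for any of the 6.

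**Figure D3:**
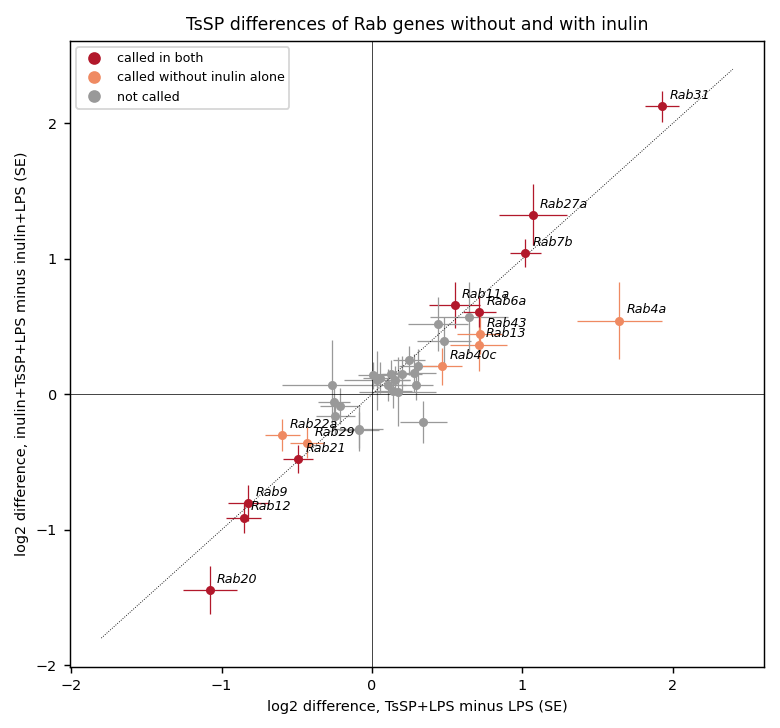
Log2 difference for TsSP against LPS alone (horizontal axis) and for both against inulin (vertical axis) of the 38 Rab genes above background, with SE bars and the line of equality; dark red genes were called in both comparisons, orange genes only without inulin, grey genes in neither. The 9 dark red genes lie near the line from Rab20 at the lower left to Rab31 at the upper right, and Rab4a, at 1.65 and 0.54, lies farthest from it.

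Cells with inulin and TsSP were also compared with LPS alone, which reuses the LPS arrays of the first comparison, so the values are given only side by side. Of the 56 Rab genes 15 were called (26.8%, against 17.6% of all genes). Of these, 8 were higher (14.3%, against 10.3% of all genes) and 7 lower (12.5%, against 7.3% of all genes). With exon control centring 5 were higher and 8 lower. These shares count genes below background, which make up a smaller part of the Rab family than of all genes. The count was 9 without replicate 1 of the group with both and 9 when only the arrays of these 2 groups were fitted. Rab31 differed by 2.05 (SE 0.11), beside 1.93 for TsSP alone. Rab7b stood at 1.05 beside 1.02, Rab4a at 1.15 beside 1.65, Rab11a at 0.78 beside 0.55 and Rab27a at 0.75 beside 1.07. For Rab27a the groups overlapped, since replicate 2 of the group with both, at 7.83, was level with LPS replicate 3. On the lower side Rab20 stood at -1.40 beside -1.08, Rab9 at -0.87 beside -0.82, Rab12 at -0.77 beside -0.85 and Rab29 at -0.51 beside -0.43. Rab6a (0.73), Rab43 (0.57), Rab21 (-0.37) and Rab22a (-0.40) were called as well. Rab35 was called here (log2 difference 0.38, SE 0.11, adjusted p = 0.0336), and so was Rab30, which was above background on 1 of 3 LPS arrays and on 0 of 3 with both and has no fold (adjusted p = 0.0394). Rab13 (adjusted p = 0.0509) and Rab40c (adjusted p = 0.0588) did not pass.

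Inulin itself was tested against LPS alone and as an addition to TsSP. No Rab gene passed either test: 0 of 56 were called for inulin against LPS alone (0% of all genes, limma) and 0 of 56 for inulin added to TsSP (0% of all genes, limma). At an unadjusted p under 0.05, inulin against LPS alone had 7 Rab genes (12.5%), against 5.86% of all genes, and inulin added to TsSP had 2 (3.57%), against 4.98% of all genes. Both counts include Rab genes below background. The 2 for inulin added to TsSP both lay below it, since the smallest p among the 38 above it was 0.0798 (limma). Among Rab genes above background, Rab35 had the smallest p. It read 11.95, 12.01 and 12.06 with LPS alone and 12.41, 12.22 and 12.30 with inulin (log2 difference 0.31, 95% interval 0.07 to 0.55, adjusted p = 0.729). Over the 38 genes above background the differences for inulin ran from -0.57 for Rab27a to 0.60 for Rab4a, with SE of 0.10 to 0.33. Rab27a, whose inulin arrays all lay below the LPS arrays, had an interval of -1.07 to -0.08 (adjusted p = 0.812), and Rab4a one of -0.02 to 1.22 (adjusted p = 0.855). The intervals of Rab31 (-0.32 to 0.18) and Rab7b (-0.22 to 0.23), which rose with TsSP, stayed well inside the size of their TsSP differences. For inulin added to TsSP the range was -0.50 for Rab4a to 0.23 for Rab11a, and the smallest adjusted p among these 38 genes was 0.981.

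The genes that act on Rab proteins, and the Arf GTPase family beside them, were counted from 5 lists. These name 158 genes, of which 135 were measured, and the others are not analysed here. Beside the shares given for each list, 11% of all genes rose with TsSP and 7.08% fell. Of 6 measured genes for the lipid modification and membrane insertion of Rabs, all above background, 3 rose with TsSP and 0 fell (50% and 0%). Their median log2 difference was 0.49, against 0.02 over all genes and 0.11 over genes above background. Chml, an escort protein for Rab prenylation, rose 2.08-fold (log2 difference 1.06, SE 0.15, adjusted p = 4.61e-04), Rabac1, which receives prenylated Rabs, 1.49-fold (adjusted p = 0.0112), and Rabggta, a subunit of the Rab prenylating enzyme, 1.55-fold (adjusted p = 0.0279). With exon control centring 1 gene of this list was called. Of 32 exchange factors, 3 rose and 7 fell (9.38% and 21.9%, median 0.07). Rab3il1, an exchange factor for Rab3 and Rab8 proteins, had a larger difference than any member of the Rab family. It gave 6.20, 5.51 and 5.98 with LPS alone, 9.97, 9.90 and 9.90 with TsSP, 6.02, 6.13 and 5.59 with inulin and 9.86, 9.65 and 9.89 with both. It was above background on 1 of 3 LPS arrays and on all TsSP arrays, and was at least 12.8-fold higher (log2 difference 4.03, SE 0.19, adjusted p = 1.25e-07). Its relative Rab3ip, an exchange factor for Rab8 proteins, gave 9.21, 9.57 and 9.26 with LPS alone, 7.94, 8.21 and 7.88 with TsSP, 9.52, 9.65 and 9.64 with inulin and 8.39, 8.29 and 8.20 with both. It fell 2.52-fold (log2 difference -1.34, SE 0.14, adjusted p = 3.64e-05), so these relatives went opposite ways on all 6 arrays with TsSP. Rab8a and Rab8b themselves were not called. Dennd2d, an exchange factor for Rab9, fell 2.19-fold (log2 difference -1.13, SE 0.15, adjusted p = 2.55e-04), beside the fall of Rab9. Denn2b, known also as Dennd2b, was called lower (adjusted p = 0.00218) but was above background on 2 of 3 LPS arrays and on 0 of 3 with TsSP and has no fold. Without TsSP replicate 2 the exchange factors had 6 calls.

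Of 37 GTPase-activating proteins, 3 rose and 2 fell (8.11% and 5.41%, median 0.15). Tbc1d10a, which acts on Rab27a and Rab35, was not above background on any LPS array and was at least 1.18-fold higher (adjusted p = 0.0157). Tbc1d20, which acts on Rab1, rose 1.37-fold (adjusted p = 0.0224) and Tbc1d17 1.53-fold (0.0283). Rab3gap2, a subunit of the Rab3 GTPase-activating complex, fell 1.64-fold (0.0240), and Tbc1d5, which acts on Rab7, 1.40-fold (0.0345). The count of 5 was unsteady: it was 3 without LPS replicate 2 or 3, 2 without TsSP replicate 1 or 2, 1 without TsSP replicate 3, 1 when only the groups compared were fitted, 9 with a mean-variance trend and 10 among genes above background alone. Of 44 effectors, 4 rose and 2 fell (9.09% and 4.55%, median 0.02). The 2 that fell, Appl1 and Eea1, bind Rab5 and fell 1.53-fold (log2 difference -0.61, SE 0.13, adjusted p = 0.00630) and 1.47-fold (-0.55, SE 0.13, adjusted p = 0.00895). Other Rab5 effectors of the list were not called: Rabep1 (-0.26, limma, adjusted p = 0.248), Rbsn (-0.17, 0.555) and Rabep2 (0.30, 0.367). Ocrl, which also binds Rab5, rose (0.65, 0.0300). Uso1, the tether that Rab1 recruits to the Golgi apparatus, rose 1.66-fold (adjusted p = 0.00123), and Micall1, of recycling endosomes, at least 1.92-fold (adjusted p = 0.00274). The Arf GTPases, a sister family that buds coated vesicles, had 5 rises and 2 falls among 16 measured genes (31.25% and 12.5%, median 0.15). Arf2 rose 2.00-fold (adjusted p = 0.00116), Arl15 1.74-fold (0.00695) and Arl16 1.66-fold (0.00725), while Arfrp1, of the trans-Golgi network, fell 1.52-fold (0.00163). With exon control centring 4 of the 16 were called. The share called was 50.0% for insertion and prenylation, 43.8% for the Arf family, 31.3% for exchange factors and 13.6% and 13.5% for effectors and GTPase-activating proteins, against 18.1% of all genes and 34.9% of those above background. The list shares count genes below background, in this order 0 of 6, 1 of 16, 5 of 32, 16 of 44 and 9 of 37. They are therefore not like for like with the 34.9% or with each other. No list was tested as a set.

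**Figure D4:**
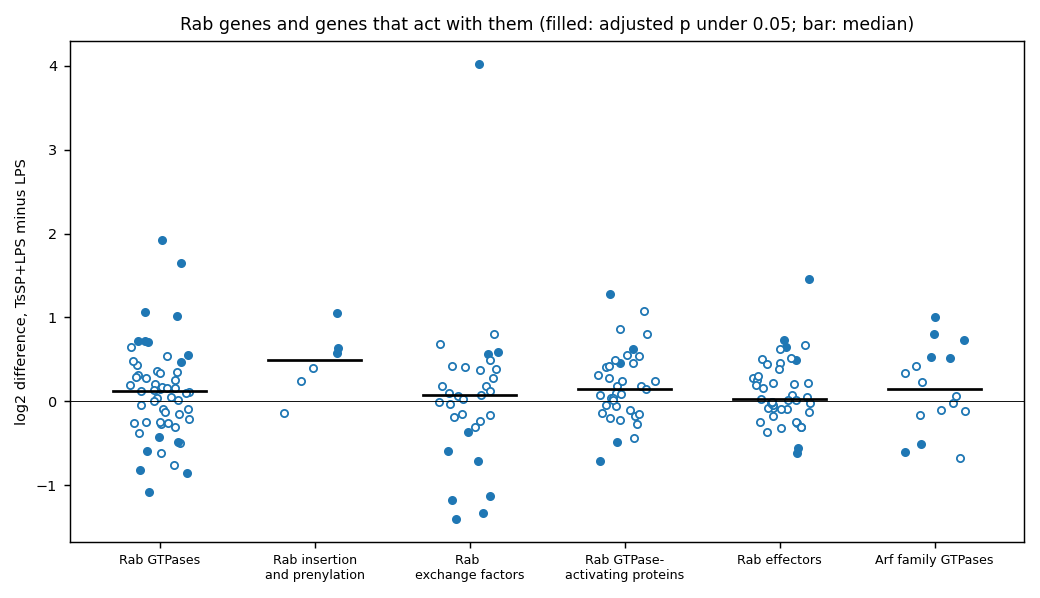
Log2 difference for TsSP against LPS alone (vertical axis) of the 56 Rab genes and of the measured genes of 5 lists (horizontal axis). The lists hold genes that act with Rab proteins and the Arf family. There is 1 point per gene, filled where the adjusted p was under 0.05, with the median as a bar. Genes below background are included. Rab3il1, at 4.03, stands above all others, and the medians lie between 0.02 and 0.49.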

How the data were processed

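RNA of RAW 264.7 cells was measured on 12 arrays, grouped by the treatment in the labels (3 arrays a group). The deposited table gives log2 signals per probe set, used as deposited. The base is inferred from their range (1.32 to 18.9). How the authors corrected background and normalized is not given in the sources used here, and any compression by those steps would carry into the folds. Of 28846 probe sets, 19572 have 1 gene symbol, all matched to RefSeq GRCm38.p6 for names. The brightest probe set stood for each of 55 genes with several, which left 19505 genes.

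All 6 contrasts came from 1 limma model over the 12 arrays (limma 3.58.1, R 4.3.3, 8 residual degrees of freedom), two-sided, with Benjamini-Hochberg adjustment over all genes and a threshold of 0.05, checked on simulated data. Where a gene was below background on some array of the dimmer group, its fold is a lower bound, with those arrays set to the background level. Matplotlib 3.10.9 drew the plots. The number of arrays limits the precision.

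Named genes are every called Rab gene, with array values for the 12 of smallest p, 11 Rab genes of macrophage traffic whatever they did, those next to the threshold, and up to 4 called genes of each companion list (all where 5 or fewer). Ocrl, Rabep1, Rbsn and Rabep2 were added beside Appl1 and Eea1. The members, lists and rules were chosen with earlier results of these data known. Tried instead were quantile normalization, median centring, exon control centring (added after seeing the data), a mean-variance trend, a background filter, mean probe sets, a replicate block, only the groups compared, and each array left out.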

Additional observations from a re-analysis of the deposited data

How the results depend on the processing

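Of the 15 Rab genes called for TsSP against LPS alone, 11 kept the call in all 20 alternatives: Rab31, Rab7b, Rab6a, Rab4a, Rab43, Rab27a, Rab12, Rab9, Rab20, Rab22a and Rab21. Rab11a lost it in 13, Rab40c in 10, Rab13 in 7 and Rab29 in 5. With an array left out in turn, TsSP against LPS alone had 11 to 16 Rab calls, both against LPS alone 9 to 16, TsSP added to inulin 8 to 10, and inulin against LPS alone, inulin added to TsSP and the interaction 0 each. TsSP added to inulin had 14 calls among genes above background alone, and both against LPS alone had 9 with only the groups compared, where fewer arrays estimate the spread and Rab13, Rab29 and Rab40c lost the call for TsSP against LPS alone (limma, adjusted p = 0.0645, 0.0920 and 0.0813); the interaction needs all 4 groups and was not run there. Differences near 0 changed sign: Rab7 to -0.0068 after quantile normalization, to -0.154 with exon control centring and to between -0.020 and 0.108 with an array left out, and with exon control centring Rab10 to -0.065 and Rab14 to -0.0066. Same-numbered arrays did not deviate together (r from -0.094 to 0.105 over 18 pairs, 1 over 0.1, and 2 of 12 arrays closest to their own number). With the replicate number as a block, TsSP against LPS alone had 13 Rab calls, without Rab11a (limma, adjusted p = 0.0522) and Rab40c (0.0630), both against LPS alone 13, TsSP added to inulin 10 and the other 3 contrasts 0. With 3 arrays a group and genes near the background probes, small differences could not be resolved.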

Other observations

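The genes that act on Rab proteins and the Arf family were also read with inulin present, on arrays that the comparison of TsSP with LPS alone did not use. With TsSP added to inulin, 2 of 6 genes of Rab insertion and prenylation were higher and 0 lower, 2 of 32 exchange factors were higher and 6 lower, 2 of 37 GTPase-activating proteins were higher and 1 lower, 6 of 44 effectors were higher and 3 lower, and 3 of 16 Arf family genes were higher and 2 lower, against 8.66% of all genes higher and 7.99% lower. Rab3il1, the exchange factor with the largest difference, stood at a log2 difference of 3.88 (SE 0.19, adjusted p = 1.37e-07, limma), beside 4.03 without inulin. Rab3ip stood at -1.31 beside -1.34, Dennd2d at -1.24 beside -1.13, and Chml at 1.24 beside 1.06, all past the threshold. Of the effectors that bind Rab5, Eea1 (-0.62, adjusted p = 0.00498) and Appl1 (-0.61, adjusted p = 0.00690) were lower here as well. Ocrl was higher again (0.61, limma, adjusted p = 0.0425). Rabep1 (-0.29, 0.211), Rbsn (-0.10, 0.761) and Rabep2 (0.09, 0.835) were again not called. Tbc1d10a lay near background, being above it on 0 of 3 LPS arrays, 1 of 3 inulin arrays and 2 of 3 arrays with both. Called without inulin at a log2 difference of 1.28, it stood at 0.05 with inulin (limma, adjusted p = 0.951), where it has no fold. The interaction of inulin and TsSP tests the difference between these values. It was called for 0 of the 37 GTPase-activating proteins (limma, smallest adjusted p = 0.834). At an unadjusted p under 0.05 it had 5 of them (13.5%), against 5.58% of all genes.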
